A study of Homo sapiens with 16 samples.

Results

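Transcript levels in RAS-induced senescence were measured here in vector cells, as the difference between 4 libraries from cells given 4-hydroxytamoxifen (EV_4OHT, replicates 53 to 56) and 4 libraries from cells without it (EV, replicates 49 to 52), which are 8 of the 16 RNA-seq libraries of the series, over every gene of the count table. The other 8 libraries came from cells given 4-hydroxytamoxifen with an shRNA against AHCY. They are not compared here, but enter the filter on low counts, the scaling factors and the estimate of the spread. All cells were IMR90 ER:RAS. IMR90 is a strain of human lung fibroblasts, and ER:RAS stands for RAS joined to a domain of the oestrogen receptor, which keeps the fusion inactive until 4-hydroxytamoxifen (4OHT) binds it. Both groups carried the fusion and the vector and were at passage 15, both are labelled as day 6 after 4OHT, and the agent was used at 100 nM in EV_4OHT. The labels do not say which RAS gene is in the fusion, whether the line is 1 clone, or whether each library is a culture of its own; p-values therefore describe the spread between libraries, which may be technical. No group without the fusion was given 4OHT, so effects of the agent and of RAS cannot be told apart.

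RAS is a membrane switch that passes growth signals through the kinases RAF, MEK and ERK. In a normal fibroblast a RAS signal that never ends first drives growth and then a lasting arrest, oncogene-induced senescence, in which CDK inhibitors hold the RB proteins active and E2F factors no longer open the genes of S phase and mitosis. Such cells stay metabolically active, lose lamin B1, and release cytokines, matrix proteases and growth factors (the senescence-associated secretory phenotype, SASP), largely through NF-kB, C/EBP beta and AP-1.

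Total counts ran from 13956130 to 18235787 in EV and from 12502278 to 15284201 in EV_4OHT. EV replicate 51 stood apart from EV replicates 49 and 52: the chi-square of their counts per degree of freedom was 35.9 and 32.7, against 3.82 to 11.9 for the other 10 pairs within the groups, its pair with EV replicate 50 included. Relative to an average not limited to EV, levels in EV replicate 51 were lower in GC-rich genes (across genes, Spearman's rho = -0.266). That value can therefore also hold differences between EV and the other groups. Levels below are CPM, counts scaled to a common library size by TMM factors, given in the order of the replicate numbers, 49 to 52 for EV and 53 to 56 for EV_4OHT. Changes are log2 fold changes of EV_4OHT over EV ± the standard error from edgeR's quasi-likelihood test, with p-values adjusted over all 13526 genes tested, and a gene is said to rise or fall only at an adjusted p under 0.05. Means are given ± SD over the libraries of a group (n = 4). Where the values of all 8 libraries are given, the groups do not overlap unless the text says so. These are bulk libraries, in which fewer cells of a kind and less RNA per cell cannot be told apart.

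Of the 13526 genes tested, 3613 rose and 3626 fell, so 53.5% of all genes tested changed, 26.7% upwards and 26.8% downwards. Counts of gene lists should be read against those shares, and their medians against the median of all genes tested, -0.02. At least 2-fold, more genes fell than rose, 1430 against 975. Only the largest changes went mainly upwards: 212 genes rose and 132 fell at least 8-fold. Under scaling by library totals alone the median over the genes tested was -0.13, and 38.2% of the calls were upwards, against 49.9% with TMM. Among the genes named here that choice ended the calls of CCNE1, HMGA1 and KIF16B and called lower CEBPD, CGAS, EGFR, HOXA5, NF1, ORC2, SESN1, TCF21 and VIM, and removal of GC trends called LDHA and ORC5 higher. Where library totals turn the sign of a list's median, the text says so, and where leaving out a library or another filter, test or GC correction moves a list's count by over 1.5 times, or its median by that much and by more than 0.1, the value is given beside it. A stricter filter below means at least 10 counts in 8 libraries. Without EV replicate 51, 3398 genes rose and 3472 fell. In all, 1273 of the 1467 genes in the lists described here passed the filter on low counts, and 420 of these rose and 499 fell. A gene silent in 1 group could pass through the other, or through the libraries with the shRNA, where it is high. Counts and medians over the members that passed therefore describe those members only.

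**Figure D1:**
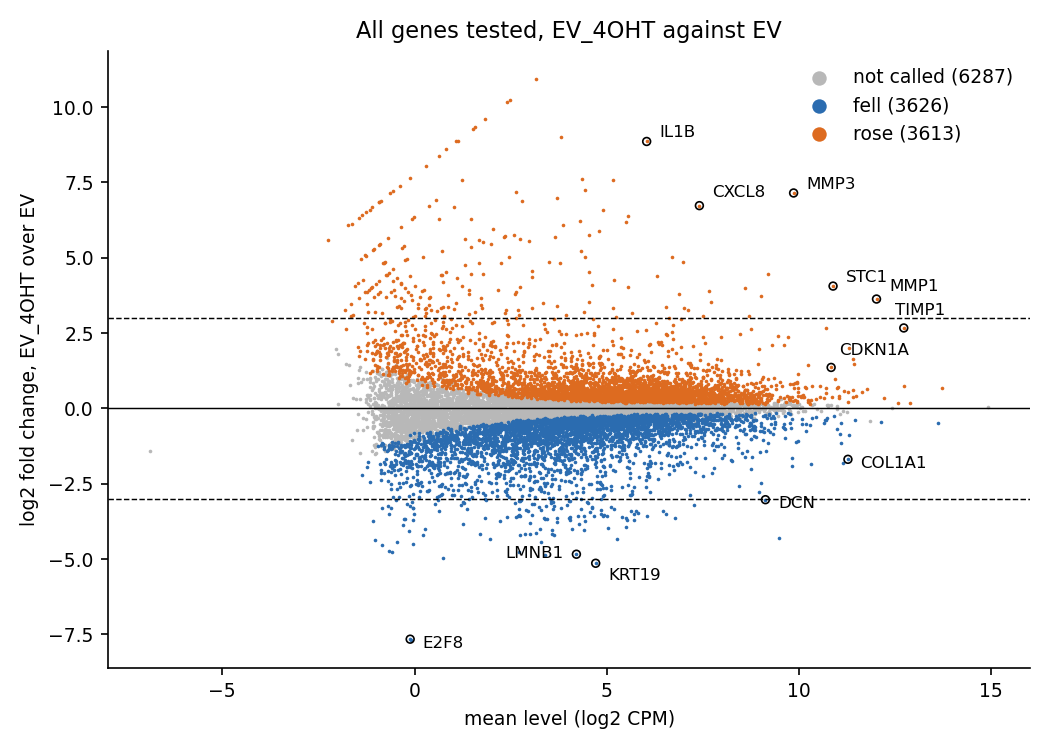
Log2 fold change of EV_4OHT over EV (vertical axis) against the mean level in log2 CPM (horizontal axis, log scale) for each of the 13526 genes tested, with genes that rose in orange, genes that fell in blue and genes not called in grey. The widest changes are upwards, with 212 genes above and 132 below the dashed lines at 8-fold; genes on the straight rising edge had 0 counts in EV, and their height depends on the prior count of the fit.

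General markers of fibroblasts were present at both conditions. VIM, the intermediate filament of mesenchymal cells, was at 1960.3, 2029, 2042 and 2051 CPM in EV and at 1971, 2007, 2007 and 2054 in EV_4OHT, ranges that overlap (-0.01 ± 0.05). PDGFRA, a growth factor receptor of fibroblasts, and FAP, a surface protease, also did not pass the threshold (0.00 ± 0.08 and 0.21 ± 0.09), although FAP was called higher without EV replicate 51 or without EV_4OHT replicate 53 (0.26 and 0.25) and with RLE factors, DESeq2, limma-voom or the GC trend removed (0.21 to 0.36), while 5 of the 8 fibroblast markers fell, COL1A1, S100A4, PDGFRB, THY1 and FN1. In each list of markers of other cell types 2 members had 0 counts in all 8 libraries: PECAM1 and CDH5 of endothelium, CD3E and ITGAM of blood cells, and KRT14 and SFTPC of epithelium. The summed level of the 9 immune markers went from 0.871 to 1.35 CPM in EV and from 2.12 to 3.35 in EV_4OHT. PTPRC, the leukocyte antigen CD45, had 0 counts in EV and 23 counts over the EV_4OHT group, at least 9.53-fold higher when a group total of 3 counts is taken as the floor, and CSF1R, the receptor of a macrophage growth factor, rose by 1.64 ± 0.35 at a mean of 1.66 ± 0.55 CPM. The 7 endothelial markers summed to 6.28 to 7.65 CPM in EV and 4.96 to 7.07 in EV_4OHT. KDR, a VEGF receptor, had 1 count over the EV group and 42 over the EV_4OHT group, a ratio of 52.2 with an exact 95% binomial interval of 8.87 to 2110 that covers counting error only. Of the 9 immune and 7 endothelial markers 2 and 3 passed the filter, and 2 (1 with the stricter filter or the 8 vector libraries alone) and 1 (0 with the stricter filter or the 8 vector libraries alone) of these rose and 0 and 1 (0 without EV replicate 52 or EV_4OHT replicate 54 or 56) fell. Of the 9 epithelial markers 5 passed it, 1 rose and 2 fell (4 with library totals or without EV replicate 50). They summed to 104 to 126 CPM in EV and 54.4 to 65.7 in EV_4OHT. Most of that difference lay in KRT19, a simple keratin, which was at 53.1, 47, 47.2 and 56.2 CPM in EV and 1.5, 1.73, 1.34 and 1.2 in EV_4OHT and fell by 5.14 ± 0.17, the largest decrease among genes with a mean log2 CPM of at least 3. In EV_4OHT other members of the epithelial list held nearly all of its sum. The part of these cell types in the results was not tested.

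HRAS itself was counted at 1808, 1520.5, 1344 and 1612 CPM in EV and at 2672, 2521, 2674 and 2476 in EV_4OHT. It rose by 0.72 ± 0.09 (edgeR adjusted p = 5.77e-07), with all 4 EV_4OHT libraries above all 4 EV libraries. Reads of a fusion built from HRAS would be counted on this gene, and whether they are was not tested. The relatives RRAS and RRAS2 fell by 0.67 ± 0.13 and 1.57 ± 0.19. Of 26 RAS, RAF, MEK and RAS regulator genes tested, 7 rose and 7 fell, and the median change was 0.02. NF1, the RAS-inactivating protein of neurofibromatosis, was at -0.19 ± 0.10 and did not pass the threshold, and RASSF2, an effector thought to restrain growth, fell by 1.77 ± 0.30. With library totals the median of the list was -0.09, below 0.

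Genes that ERK switches on to damp its own signal mostly rose. Of 21 tested, 14 rose and 1 fell, against 26.7% and 26.8% of all genes, and the median change was 0.94. DUSP6, the phosphatase that acts on ERK in the cytoplasm, went from 122, 114, 119.6 and 118 CPM in EV to 745, 723, 731 and 776 in EV_4OHT, with no overlap (2.65 ± 0.08, edgeR adjusted p = 8.14e-18). Its nuclear relative DUSP4 rose from a lower base, by 3.09 ± 0.17. The RAS pathway inhibitors SPRY2 and SPRY4 rose by 1.86 ± 0.09 and 1.73 ± 0.11. Against the trend, DUSP10, a phosphatase of the stress kinases p38 and JNK, fell by 1.2 ± 0.07 to a mean of 59.6 ± 2.64 CPM, and SPRED1, a further RAS inhibitor, was at -0.19 ± 0.16 and was not called. Immediate early genes divided: 8 of 15 rose and 4 fell (median 0.55, 0.33 without EV_4OHT replicate 55). EGR1 rose by 1.12 ± 0.10 and EGR2 by 2.99 ± 0.25, whereas KLF4, a factor tied to quiescence, fell by 1.28 ± 0.33. The count of early genes that fell was 2 without EV replicate 52.

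EREG and AREG, a pair of ligands of the EGF receptor, rose steeply. EREG (epiregulin) was at 30.1, 22.9, 30.8 and 20.2 CPM in EV and at 247, 221, 278 and 256 in EV_4OHT, a rise of 3.27 ± 0.13 (edgeR adjusted p = 3.7e-15). AREG (amphiregulin) had 1 count over the 4 EV libraries and 245 over the 4 EV_4OHT libraries, a ratio of 305 with an exact 95% binomial interval of 54.2 to 12100. HBEGF, a further ligand, rose by 0.46 ± 0.14. The receptor gene EGFR was at -0.14 ± 0.09 and did not pass the threshold, its partner ERBB2 fell by 1.03 ± 0.13, and ERRFI1, an inhibitor of the receptor kinase, rose by 1.8 ± 0.07. In this list, 6 of 11 genes rose and 4 fell (median 0.46, 0.30 without EV replicate 51, 0.15 to 0.18 with DESeq2, no filter or the stricter filter, 11 of 16 members tested).

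The CDK inhibitors, which stop the kinases of the cell cycle, divided into 4 that rose and 3 that fell, of 7 tested (median 0.56, -0.36 to -0.34 with DESeq2 or no filter). CDKN2B, the INK4 inhibitor p15, was at 16.8, 14.7, 15.2 and 15.6 CPM in EV and at 212, 215, 224 and 225 in EV_4OHT (3.81 ± 0.12, edgeR adjusted p = 2.45e-17). Its neighbour CDKN2A, which encodes both p16 and the p53 activator ARF, went from 30.9, 30.04, 30.1 and 32.3 to 65, 72, 76 and 73.9 CPM (1.22 ± 0.09). Gene counts do not separate the pair of CDKN2A products. CDKN1A, the p53 target p21, went from 1101, 997, 885 and 1099 to 2701, 2642, 2669 and 2498 CPM (1.36 ± 0.08). In all 3, the lowest EV_4OHT library lay above the highest EV library. Opposite to them, CDKN1B (p27) fell from 9.39 ± 1.74 to 3.32 ± 0.635 CPM, by 1.5 ± 0.20, CDKN2C (p18) fell by 2.72 ± 0.44, and CDKN3, a phosphatase of CDK1 that dividing cells express, fell by 3.54 ± 0.13.

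**Figure D2:**
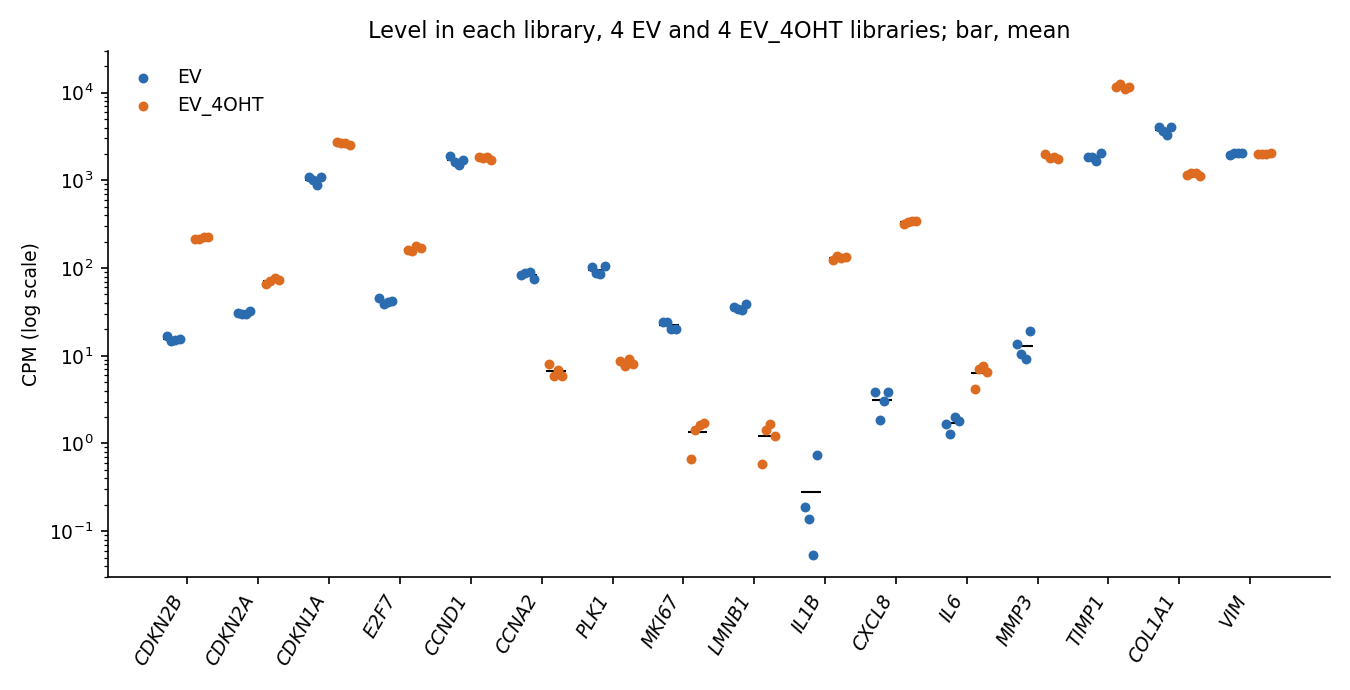
CPM in each of the 8 libraries (vertical axis, log scale, 1 point per library) for 16 genes, EV in blue and EV_4OHT in orange, with a bar at each group's mean of 4 libraries. The groups do not overlap for any gene shown except CCND1 and VIM.

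E2F and RB family genes did not move as a block. E2F7 and E2F8, a pair of repressor E2Fs, parted: E2F7 was at 45.4, 38.6, 41.2 and 42.5 CPM in EV and at 162, 157, 177 and 167 in EV_4OHT, a rise of 1.98 ± 0.10 (edgeR adjusted p = 1.99e-13). E2F8 had 26 to 34 counts in every EV library and 0 counts in every EV_4OHT library, at least 32.4-fold lower when the floor is set at 3 counts in the group. E2F1, an activator, fell by 1.18 ± 0.25, and E2F4 and E2F6 rose by 0.48 ± 0.12 and 0.46 ± 0.11. RBL1 (p107), the RB relative that cycling cells make, went from 16.3, 20.1, 20.1 and 13.6 to 2.83, 3.3, 4.02 and 2.41 CPM and fell by 2.47 ± 0.20. Of 12 E2F, DP and RB family genes tested, 3 rose and 6 fell (median -0.29, -0.44 without EV replicate 51 or EV_4OHT replicate 55, -0.17 with the stricter filter). MYBL2 and FOXM1, the factors that drive late cell cycle genes, fell by 4.5 ± 0.62 and 3.42 ± 0.21 (MYBL2 had counts in only 1 of the 4 EV_4OHT libraries), and the MuvB subunits LIN9, LIN52 and LIN54, with which MYBL2 works, fell by 1.08 ± 0.19, 0.60 ± 0.14 and 0.53 ± 0.12. None of the 7 genes of that list rose and 6 fell (median -0.60).

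Cyclins of different phases had different fates. CCND1, the cyclin of early G1, was at 1909, 1602, 1509 and 1709.7 CPM in EV and at 1824, 1785, 1846 and 1704 in EV_4OHT, with overlapping ranges and a change of 0.09 ± 0.07 (edgeR adjusted p = 0.311). CCND2 rose by 0.91 ± 0.11. The S phase cyclin pair parted as the E2Fs did: CCNE2 went from 12.4, 11.8, 17.1 and 9.59 to 0.249, 0.785, 1.14 and 0.526 CPM and fell by 4.19 ± 0.29, while CCNE1 rose by 0.43 ± 0.14, a call that ended with library totals (0.32) and without EV_4OHT replicate 55 (0.30). CCNA2, CCNB2 and CDK1, of S phase, G2 and mitosis, fell by 3.65 ± 0.11, 2.75 ± 0.10 and 3.71 ± 0.18. Over 17 cyclins and CDKs, 3 rose and 9 fell (median -0.45, -0.25 without EV replicate 51, -0.27 with the GC trend removed). Only 1 was called higher with library totals, 1 without EV_4OHT replicate 55 and 5 after removal of GC trends.

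The promoters of mitotic genes are known to share 2 elements near their start sites, the cell cycle homology region (TTTGAA), where MuvB complexes bind, and the CCAAT box, where NF-Y binds. The promoter windows of PLK1, the polo-like kinase of mitosis, and of CCNA2 are shown because both genes fell more than 8-fold. They come from RefSeq (build GRCh38.p14), run 5′ to 3′ on the gene's strand over 300 bases that end just after the start site, and carry in capitals each match to TTTGAA or to CCAAT, to TTTNNCGC, GGNNTTTCC, TGANTCA or TATAAA on either strand. PLK1 lies at chr16:23678639-23678938 on the + strand, and CCNA2 at chr4:121823834-121824133 on the - strand.
PLK1: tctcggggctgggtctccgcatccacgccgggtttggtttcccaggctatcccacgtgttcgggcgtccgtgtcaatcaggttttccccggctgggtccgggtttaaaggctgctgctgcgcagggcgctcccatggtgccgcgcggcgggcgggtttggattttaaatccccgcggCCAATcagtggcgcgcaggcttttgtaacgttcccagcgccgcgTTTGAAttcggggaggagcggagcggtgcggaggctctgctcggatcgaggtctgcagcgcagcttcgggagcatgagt
CCNA2: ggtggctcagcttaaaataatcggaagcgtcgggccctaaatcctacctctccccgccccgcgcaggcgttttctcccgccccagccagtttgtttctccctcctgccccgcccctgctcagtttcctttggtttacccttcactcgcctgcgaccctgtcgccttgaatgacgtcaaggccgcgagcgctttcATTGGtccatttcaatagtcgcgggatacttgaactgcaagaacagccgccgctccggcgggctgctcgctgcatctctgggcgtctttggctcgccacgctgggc
PLK1 holds TTTGAA 29 bases and CCAAT 73 bases before the start site. CCNA2 holds a CCAAT box on the opposite strand, 56 bases before it, and no TTTGAA in this window. Over the kinesin, kinetochore and mitotic kinase genes that fell, 26 of 52 promoters held TTTGAA and 61.5% held CCAAT, against 9.93% and 36.8% of the promoters of all genes tested and 15.4% and 35.7% of all 27305 promoters in the table. A match is a description of the letters and not a binding site.

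PLK1 was at 103, 87.7, 86 and 106 CPM in EV and at 8.73, 7.62, 9.17 and 8.05 in EV_4OHT, a decrease to 8.78% of the EV mean (-3.51 ± 0.14, edgeR adjusted p = 2.18e-15). Of 20 CDC25 phosphatases and mitotic and checkpoint kinases, 17 fell (median -1.95), led by NEK2, a centrosome kinase, and BUB1B, a spindle checkpoint kinase (-3.63 ± 0.21 and -3.58 ± 0.18). The 1 that rose was PLK3, a stress-responsive relative of PLK1 that p53 can activate, from 40.9 ± 2.72 to 153 ± 7.06 CPM (1.91 ± 0.09). Spindle motors fell too. 15 of 21 kinesins were lower and 2 higher (median -2.21). KIF20A, the motor of cytokinesis, went from 82.1, 71.6, 69.8 and 70.4 to 4.82, 3.46, 3.35 and 2.93 CPM and fell by 4.34 ± 0.19. The kinesins that rose, KIF3A (0.65 ± 0.11) and KIF16B (0.29 ± 0.11), carry cargo, and KIF16B was not called with upper-quartile factors, library totals, no filter on low counts or the 8 vector libraries alone (0.18 to 0.31), without EV replicate 49, 50 or 52 or without EV_4OHT replicate 53 or 55 (0.21 to 0.30). KIF5B, the conventional transport kinesin, fell by 0.37 ± 0.11. Of 33 centromere and kinetochore genes 30 fell and none rose (median -2.08). MKI67, the marker of dividing cells known as Ki-67, was at 24.4, 24.4, 20.4 and 20.3 CPM in EV and at 0.665, 1.41, 1.61 and 1.73 in EV_4OHT and fell by 4.02 ± 0.21, and DLGAP5, a spindle protein, fell by 3.98 ± 0.16.

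NDC80, NUF2 and SPC25, genes of the NDC80 complex that ties microtubules to the kinetochore, all fell. NDC80 was at 34.7, 39.6, 45.8 and 38.8 CPM in EV and at 2.24, 1.34, 2.88 and 3.23 in EV_4OHT (-4.02 ± 0.18), and its partners NUF2 and SPC25 fell by 4.0 ± 0.25 and 4.19 ± 0.31. EV replicate 51 was highest of the EV libraries for both partners, at 46.7 CPM for NUF2 and 31.9 for SPC25, and without it the changes were -3.77 and -4.0. CENPA, the histone H3 variant that marks the centromere, fell by 2.91 ± 0.37 and its chaperone HJURP by 3.28 ± 0.15. Condensin and cohesin genes fell in 17 of 22 cases and none rose (median -0.88), from the condensin subunit NCAPG at -3.59 ± 0.18 to the cohesin subunit STAG2 at -0.02 ± 0.13, which was not called.

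Genes of the replication fork fell almost without exception. Of 43 genes of origin licensing, helicase, polymerases and clamp loaders, 40 fell and none rose (1 with the GC trend removed) (median -1.47), against 26.8% of all genes tested. MCM10, which starts the fork, went from 16.6, 17.2, 17.6 and 21 to 0.831, 1.57, 1.07 and 1.05 CPM and fell by 3.99 ± 0.24 (edgeR adjusted p = 2.31e-12). PRIM1, the catalytic primase subunit, fell by 3.73 ± 0.22, the helicase subunit MCM2 by 1.72 ± 0.13 and PCNA, the sliding clamp, by 0.77 ± 0.11. The 3 that were not called were the origin recognition subunits ORC2, ORC4 and ORC5, with changes of -0.21 ± 0.11, -0.10 ± 0.16 and 0.18 ± 0.12 (ORC2 was called lower, at -0.28, without EV replicate 49), while ORC1, the subunit made anew in each cycle, fell by 1.53 ± 0.21. The E2F element TTTNNCGC stood in 21 of the 35 promoters matched for the replication genes that fell, against 10.5% of genes tested, and TTTGAA in none of them.

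Nucleotide supply divided by pathway. Enzymes of DNA precursors fell: TK1, the salvage kinase of thymidine, by 3.58 ± 0.13, RRM2, the S phase subunit of ribonucleotide reductase, by 2.87 ± 0.07 and TYMS, thymidylate synthase, by 2.62 ± 0.10. RRM2B, the subunit that p53 induces, rose by 0.58 ± 0.12, as did UMPS, CTPS1 and IMPDH1, which make pyrimidine and guanine nucleotides (0.47 ± 0.08, 0.62 ± 0.09 and 0.72 ± 0.12). RRM2 was at 245, 252, 254 and 253 CPM in EV and 33.7, 36.7, 34.5 and 32 in EV_4OHT, and RRM2B at 90.2, 103, 117 and 89.8 and 151, 140.2, 154 and 155. The pair of reductase subunits therefore moved in opposite directions. Of 23 genes 5 rose and 10 fell (median -0.13).

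Homologous recombination and Fanconi genes, which repair replication forks, fell in 26 of 31 cases, against 26.8% of all genes, and none rose (1 with the GC trend removed) (median -1.49). RAD51AP1 and BARD1 fell by 3.25 ± 0.19 and 3.19 ± 0.18 and BRCA1 by 1.77 ± 0.22. Chromatin assembly fell with replication: ASF1B, a histone chaperone of dividing cells, by 3.71 ± 0.15 and CHAF1B, of the assembly factor at the fork, by 2.65 ± 0.24, in a list where 10 of 18 fell (median -0.71) and none rose (1 with the GC trend removed or without EV_4OHT replicate 56). Histone genes did not behave alike. H4C3 went from 98.2 ± 17 to 9.21 ± 1.9 CPM, a decrease of 3.41 ± 0.15, the linker histone H1-1 fell by 4.2 ± 0.53, and H4C8 rose by 2.33 ± 0.10. In all, 5 of 16 replication-dependent histone genes rose and 5 fell (median 0.21, 0.36 without EV replicate 52, 0.32 with the stricter filter, 16 of 34 members tested), 2 with a stricter filter on low counts. Near-identical histone copies may share reads, and most of these mRNAs lack the poly(A) tail on which Smart-Seq2 primes, so single genes here are uncertain.

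LMNB1, lamin B1 of the nuclear envelope, was at 36.4, 34.4, 33.6 and 38.6 CPM in EV and at 0.582, 1.41, 1.67 and 1.2 in EV_4OHT (-4.84 ± 0.19, edgeR adjusted p = 1.96e-15). The other lamin genes LMNB2 and LMNA fell by 0.71 ± 0.14 and 0.76 ± 0.09, and LBR, the lamin B receptor that tethers heterochromatin, fell by 1.33 ± 0.10. Of 15 lamina and envelope genes, 9 fell and none rose (1 with the GC trend removed) (median -0.71). HMG proteins, which bend or open chromatin, divided by class: HMGB2 fell by 3.48 ± 0.12 and HMGB1 by 1.16 ± 0.12, HMGN2 by 1.4 ± 0.07, while HMGA1 and HMGA2, which build senescent heterochromatin, rose by 0.28 ± 0.08 and 0.61 ± 0.10, HMGA1 not with library totals (0.17). Of 10 HMG genes 2 rose and 7 fell (median -1.0). Among Polycomb and methylation genes 8 of 24 fell and 4 rose (median -0.25, -0.14 with the GC trend removed). EZH2, the Polycomb methyltransferase, went from 26.8, 26.9, 26.2 and 25 to 7.56, 5.81, 6.23 and 6.92 CPM and fell by 1.98 ± 0.12, and KDM6B, a demethylase of the same mark, rose by 1.14 ± 0.20 to 6.49 ± 0.891 CPM.

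Targets of p53 divided. Of 30 tested, 13 rose and 3 fell (1 with DESeq2 or without EV replicate 51 or EV_4OHT replicate 53 or 54) (median 0.15), against 26.7% and 26.8% of all genes. GDF15, a stress cytokine, was at 49.5, 40.3, 40.5 and 54 CPM in EV and at 721, 738, 736 and 727 in EV_4OHT (3.99 ± 0.09, edgeR adjusted p = 2.65e-19). PHLDA3, a brake on AKT, rose by 0.77 ± 0.10. MDM2, the ligase that p53 induces against itself, was at 94.3, 103, 119 and 86.9 and 105, 102, 106 and 104 CPM, overlapping ranges with a change of 0.05 ± 0.12, and SESN1 was at -0.19 ± 0.12. Genes of the BCL2 family rose in 6 of 13 cases (median 0.36, 0.19 to 0.20 with DESeq2 or no filter) and none fell (1 with DESeq2 or no filter or without EV replicate 50 or 52 or EV_4OHT replicate 53, 54, 55 or 56), among them the protectors MCL1 (1.39 ± 0.15) and BCL2L1 (0.43 ± 0.09) and the killers BAK1 (0.98 ± 0.10) and PMAIP1 (0.68 ± 0.10). BCL2A1, an NF-kB target that protects cells, went from 0.311, 0.068, 0.476 and 0.738 to 28.1, 29.2, 27.5 and 29.3 CPM (6.09 ± 0.27, adjusted p = 1.67e-14).

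**Figure D3:**
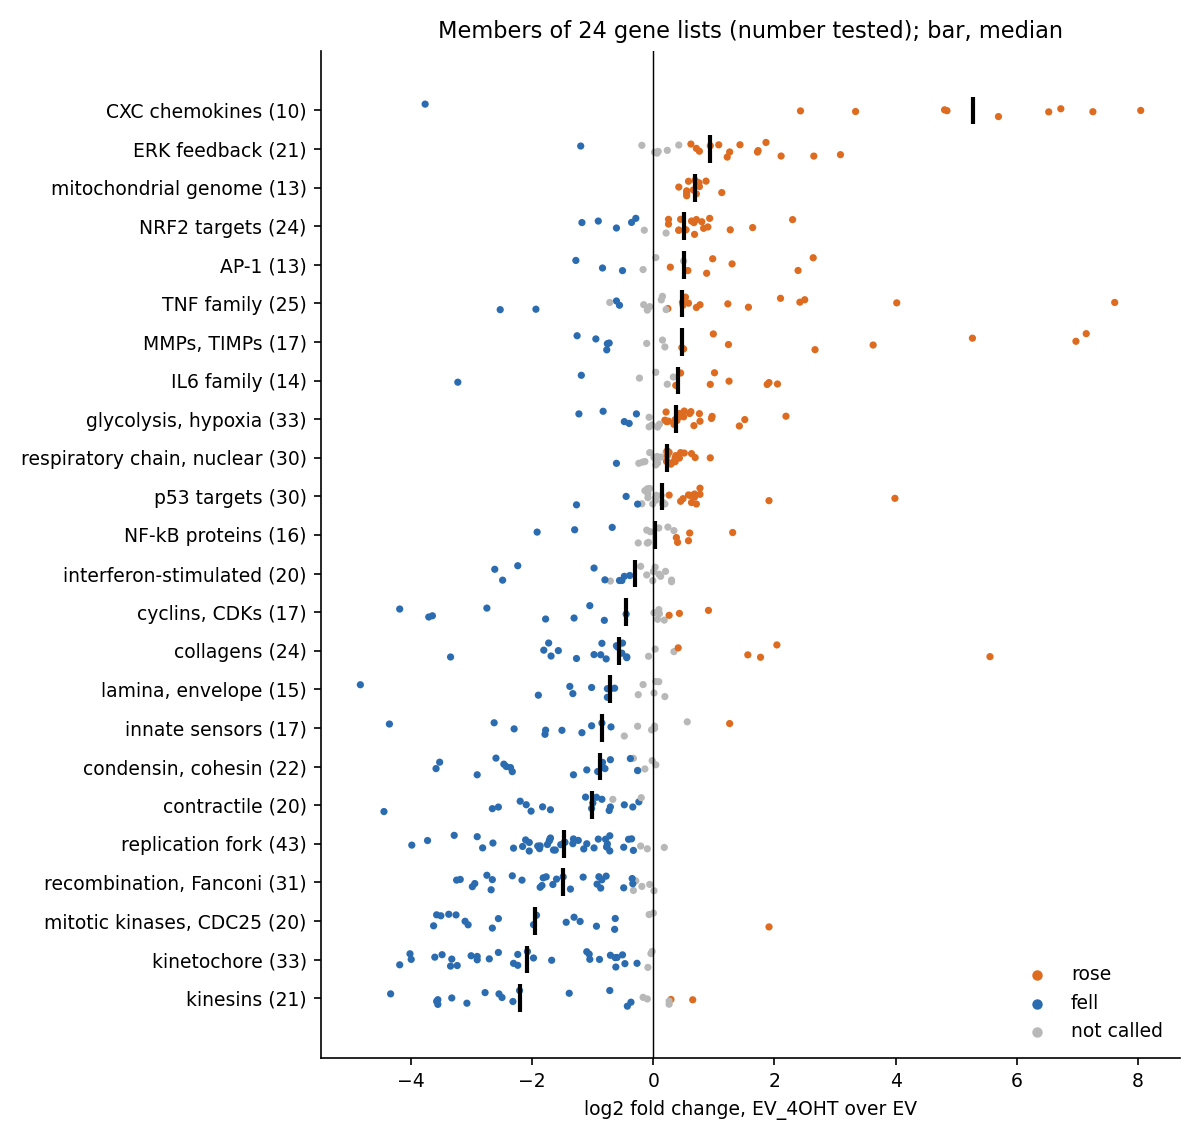
Log2 fold change of EV_4OHT over EV (horizontal axis) of every tested member of 24 gene lists (rows, ordered by median), with members that rose in orange, that fell in blue and not called in grey, and a black bar at each median. Cell division lists lie at the left, kinetochore genes at a median of -2.08, and CXC chemokines at the right, at 5.28, where CXCR4 and PF4, with 0 counts in EV, stand at fitted values.

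The interleukin-1 ligands, which start the cytokine cascade of senescent cells, were nearly silent in EV. IL1B was at 0.187, 0.137, 0.053 and 0.738 CPM in EV and at 124, 136, 129 and 135 in EV_4OHT (8.86 ± 0.21, edgeR adjusted p = 2.48e-19). IL1A went from 0, 0, 0.053 and 0.246 to 11.1, 10.7, 11.9 and 15.4 CPM (7.18 ± 0.37). IL33, an alarmin of the same family, had 1 count over the EV group and 160 over the EV_4OHT group, a ratio of 199 with an exact 95% binomial interval of 35.2 to 7910, and its receptor gene IL1RL1 rose by 3.24 ± 0.48. The interleukin-1 receptor IL1R1 and the adaptor MYD88 were at -0.05 ± 0.20 and -0.09 ± 0.11 and were not called, and IRAK4, the first kinase of the pathway, and SIGIRR, an inhibitory receptor, fell by 1.15 ± 0.13 and 0.54 ± 0.14. Of 23 genes in the list 13 passed the filter, and 7 of these rose and 2 fell (median 0.63, 0.33 to 0.38 without EV replicate 50 or 51 or EV_4OHT replicate 53, 54, 55 or 56, 1.08 with DESeq2 or no filter), 11 rising when no filter was applied.

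CXCL8, the chemokine interleukin-8 that calls neutrophils, is shown with its promoter because it combines elements of NF-kB and AP-1. The window lies at chr4:73740319-73740618 on the + strand (RefSeq, GRCh38.p14), with the same 6 motifs in capitals.
CXCL8: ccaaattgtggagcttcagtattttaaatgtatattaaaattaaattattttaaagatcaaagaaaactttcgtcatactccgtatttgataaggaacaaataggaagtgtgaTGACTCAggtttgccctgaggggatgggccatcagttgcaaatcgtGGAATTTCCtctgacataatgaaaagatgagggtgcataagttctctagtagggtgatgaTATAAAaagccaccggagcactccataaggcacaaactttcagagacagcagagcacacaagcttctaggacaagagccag
It holds TGACTCA, a match to the AP-1 motif TGANTCA, 137 bases before the start site, GGAATTTCC, a match to the NF-kB motif GGNNTTTCC, 91 bases before it, and TATAAA 31 bases before it. The cytokine and chemokine lists also hold receptors, such as CXCR4, IL1RL1 and IL6ST. Among promoters of the genes of these lists that rose, 12 of 25 (48.0%) held GGNNTTTCC and 7 (28.0%) held TGANTCA, against 6.75% and 4.87% of the promoters of all genes tested, and CXCL1, CXCL2 and CXCL3 among them are near copies of 1 gene. Over all genes that rose at least 2-fold the NF-kB share was 9.06%, the AP-1 share 11.2% and the TATAAA share 15.7%, against 5.85% for TATAAA in genes tested. Of all 27305 promoters in the table, 6.26% held the NF-kB letters, 7.76% the AP-1 letters and 12% TATAAA. Against these shares the AP-1 and TATAAA differences were smaller than against genes tested, and the NF-kB difference was larger. IL1B, in a window of the same length, held TTTGAA and CCAAT and no match to the NF-kB or AP-1 letters, and LMNB1 held none of the 6. MMP3 had no entry in the table.

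CXCL8 was at 3.86, 1.84, 3.07 and 3.81 CPM in EV and at 320.2, 334, 348 and 343 in EV_4OHT, so the lowest EV_4OHT library stood far above the highest EV library (6.73 ± 0.16, edgeR adjusted p = 2.48e-19). CXCL3, of the same receptor, went from 0.124, 0.068, 0.634 and 0.184 to 37.7, 46, 42 and 46.6 CPM (7.26 ± 0.25), and CXCL1 rose by 4.85 ± 0.25. Of 18 CXC genes in the list 10 passed the filter and 9 of these rose, with a median of 5.28, or 4.83 with CXCR4 and PF4, which had 0 counts in EV, at their lower bounds. With no filter 11 of 18 rose and the median was 4.09. The 1 that fell was CXCL12, the homing chemokine of stroma, from 29.4, 23.1, 20.3 and 24.3 to 1.33, 2.2, 1.54 and 2.03 CPM, by 3.77 ± 0.23. Its receptor CXCR4 had 0 counts in every EV library and stood at 2.83, 2.75, 2.08 and 2.11 CPM in EV_4OHT (a rise of at least 53.1-fold).

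Of the colony-stimulating factors CSF3 and CSF2 rose and CSF1 fell. CSF3 had 0 counts in every EV library and stood at 17.1, 18.7, 20.8 and 15.4 CPM in EV_4OHT (a rise of at least 398-fold). CSF2 rose from 0.316 ± 0.169 to 10.6 ± 0.682 CPM (5.02 ± 0.25), whereas CSF1, the macrophage factor, fell by 1.24 ± 0.18. CCL20 rose by 5.6 ± 0.50. CCL2, the main monocyte chemokine, was at 37.7, 52.2, 49.2 and 55.5 CPM in EV and at 39.2, 48.4, 40.1 and 46.6 in EV_4OHT, overlapping ranges with a change of -0.16 ± 0.13 (adjusted p = 0.331). In this list 5 of 7 genes rose and 1 fell (median 2.11, 3.47 with the 8 vector libraries alone, 7 of 15 members tested).

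IL6, the cytokine most often measured in the SASP, rose from 1.68, 1.3, 2.01 and 1.78 CPM in EV to 4.16, 6.99, 7.57 and 6.47 in EV_4OHT (1.88 ± 0.25, edgeR adjusted p = 1.29e-06). Its relatives IL11, CLCF1 and LIF rose by 2.05 ± 0.14, 1.91 ± 0.15 and 1.01 ± 0.11, and the shared receptor chain IL6ST (gp130) by 0.45 ± 0.11. EBI3, a subunit of interleukins that restrain T cells, and IL11RA, the receptor of IL11, fell by 3.23 ± 0.61 and 1.19 ± 0.17. In all 8 of 14 genes of this family rose and 2 fell (1 with the stricter filter) (median 0.41). In the TNF family, TNFSF15, a ligand that activates lymphocytes, went from 0.062, 0.068, 0.159 and 0.492 to 32.8, 37.7, 40.3 and 50.9 CPM (7.62 ± 0.35), and TNFAIP6, a hyaluronan-binding protein induced by TNF, rose by 4.02 ± 0.09. TNFSF4 (OX40 ligand) fell by 2.53 ± 0.16, and TNFAIP3 (A20), a brake on NF-kB, by 0.56 ± 0.17. TNF itself was close to 0, with at most 1 count in any library. Of 25 TNF family genes 14 rose and 4 fell (median 0.48, 0.26 with DESeq2 or no filter, 25 of 34 members tested).

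Of 16 genes of the NF-kB proteins and their regulators 5 rose and 3 fell, shares close to those of all genes (26.7% and 26.8%), and the median was 0.02. NFKB1 and NFKBIA, the inhibitor that NF-kB induces, were at -0.05 ± 0.16 and -0.10 ± 0.09 and were not called, NFKBIZ, a coactivator for secondary response genes, rose by 1.31 ± 0.12, and MAP3K14 (NIK), the kinase of the second NF-kB branch, fell by 1.92 ± 0.21. The count of higher genes was 2 with library totals, where the median was -0.09, and 3 without EV replicate 49 or without EV replicate 51. CEBPB, the C/EBP of the SASP, rose by 1.32 ± 0.17 from 2.62 ± 0.364 to 6.56 ± 0.605 CPM and DDIT3 (CHOP) by 1.16 ± 0.08, so 3 of 5 C/EBP genes rose (median 0.47, 5 of 7 members tested) and none fell. CEBPD was at -0.87 ± 0.40 and was called lower without EV_4OHT replicate 56 (-1.13), with library totals (-0.98) and with the 8 vector libraries alone (-0.89). Within AP-1, FOS, FOSB and JUNB rose by 2.39 ± 0.19, 2.64 ± 0.40 and 1.3 ± 0.11, while FOSL1 and FOSL2, often tied to RAS, fell by 0.51 ± 0.10 and 1.28 ± 0.12. Of 13 AP-1 and MAF genes 7 rose and 3 fell (median 0.50).

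Among sensors of infection and interferon response genes far more members fell than rose. Of 17 sensor, inflammasome and complement genes 10 fell and 1 rose (median -0.85, 17 of 27 members tested). GSDMD, the pore of pyroptosis, fell by 2.3 ± 0.15, the inflammasome sensor NLRP1 by 1.79 ± 0.14 and the complement protease C1R by 2.63 ± 0.12, from 51, 51.1, 49.3 and 55 to 9.14, 9.19, 7.03 and 8.05 CPM. CGAS, the DNA sensor, was at -0.48 ± 0.22 and was not called. The 1 that rose was CASP4, the caspase that senses lipopolysaccharide, from 124, 108, 107 and 122 to 285, 282, 261 and 273 CPM (1.26 ± 0.08). None of 20 interferon-stimulated genes tested rose and 9 fell (median -0.30, -0.19 to -0.17 without EV replicate 49 or 51, -0.19 to -0.18 with DESeq2 or no filter, 20 of 28 members tested), among them IFIT2, IFIT1 and OAS3 (-2.62 ± 0.24, -2.24 ± 0.26 and -2.49 ± 0.23), and MX1 was at 0.30 ± 0.43. The absence of rising genes holds for that list only. Outside it, CMPK2 and NRIR, chosen after their values were seen, had more counts in EV_4OHT. CMPK2 had 2 counts over the EV group and 84 over the EV_4OHT group, a ratio of 52.2. NRIR had 1 and 84, a ratio of 104. Both ratios rest on very few EV counts. IFNB1 had 0 counts in all 8 libraries. On the cell surface, 13 of 31 genes rose and 10 fell (median 0.14). ICAM1, an adhesion molecule for leukocytes, and DPP4, a surface protease of senescent cells, rose by 1.46 ± 0.12 and 1.13 ± 0.08, and the tetraspanin CD82 by 1.83 ± 0.10. VCAM1, the immunoproteasome subunit PSMB9, the checkpoint ligand PDCD1LG2 and HLA-B fell by 2.94 ± 0.47, 2.69 ± 0.21, 1.14 ± 0.13 and 0.86 ± 0.08. The ligands of the NK cell receptor NKG2D ULBP1, ULBP2, ULBP3 and MICA, named after their values were seen, all rose, by 1.17 ± 0.12, 1.04 ± 0.12, 1.25 ± 0.21 and 0.84 ± 0.08, and MICB at 0.03 ± 0.10 was not called.

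Matrix metalloproteinases rose together with TIMP1. MMP3, stromelysin, was at 13.5, 10.4, 9.15 and 19 CPM in EV and at 1970.3, 1774, 1859 and 1763 in EV_4OHT (7.15 ± 0.18, edgeR adjusted p = 9.71e-19). MMP1, the collagenase, went from 672, 593, 588 and 610.4 to 8042, 7495, 7389 and 7675 CPM (3.63 ± 0.07), and MMP10, a second stromelysin, rose by 6.98 ± 0.20. TIMP1, the inhibitor of both, went from 1837, 1848, 1641 and 2031 to 11577, 12550.0, 11119 and 11454 CPM (2.67 ± 0.07) and ranked 3 among all genes by counts in each of the 4 EV_4OHT libraries. Of other inhibitors, TIMP2 fell by 0.95 ± 0.09 and RECK, a membrane inhibitor, by 1.26 ± 0.09. Of 17 genes of the list 9 rose and 5 fell (median 0.47, 0.31 to 1.01 with DESeq2, no filter or the 8 vector libraries alone, 17 of 24 members tested). Summed, matrix metalloproteinases and TIMPs held 0.348 ± 0.023% of a library's counts in EV and 2.15 ± 0.040% in EV_4OHT (SD, n = 4; two-sided exact permutation test, p = 0.0286, the lowest value 2 groups of 4 can give, and the same adjusted over the 7 shares tested). The inflammatory cytokine and chemokine lists, some of whose members are receptors, held 0.102 ± 0.0035% and 0.182 ± 0.0078% (the same exact p). With the 10 highest genes over the 8 libraries left out of the total and the sums, the metalloproteinase and TIMP share differed by 0.973 percentage points, against 1.8 with them.

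Among ADAM and ADAMTS proteases, 7 of 18 rose and 5 fell (median 0.12, 0.24 with the GC trend removed, 18 of 25 members tested). ADAM19 went from 82.9, 79.8, 75.6 and 86.2 to 383, 436, 409 and 439.6 CPM (2.36 ± 0.09), ADAMTS4, an aggrecanase, rose by 2.07 ± 0.28, ADAM17, the sheddase of EGF ligands and TNF, was at 0.05 ± 0.10 and ADAM10 fell by 0.65 ± 0.10. The plasminogen system rose on both sides. PLAU and PLAT, the plasminogen activators, rose by 2.01 ± 0.08 and 2.38 ± 0.07, and SERPINB2, which inhibits them, went from 102, 79.5, 88.3 and 85.6 to 761, 730.4, 763 and 723 CPM (3.07 ± 0.12). TFPI2, an inhibitor of plasmin, and THBD, thrombomodulin, rose by 4.45 ± 0.10 and 4.82 ± 0.21. SERPINF1 and SERPINH1, the collagen chaperone, fell by 1.09 ± 0.13 and 0.73 ± 0.09. In total 16 of 25 protease and serpin genes of that list rose and 5 fell (median 1.23). PTGS2 (COX-2), which makes prostaglandins in inflammation, went from 1.99, 0.751, 0.74 and 1.66 to 43, 39.4, 44.3 and 40.5 CPM (5.02 ± 0.21), and PLA2G4A, which frees its substrate, rose by 1.71 ± 0.15. PTGS1 and the receptors PTGER2 and PTGFR fell by 0.69 ± 0.11, 2.24 ± 0.10 and 1.56 ± 0.24, so that 5 of 15 genes of the pathway rose and 5 fell (median -0.02, 15 of 22 members tested).

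Signals of the TGF-beta superfamily shifted in composition. BMP2 was at 0.933, 0.888, 0.582 and 1.29 CPM in EV and at 48.2, 47.9, 64 and 58.7 in EV_4OHT (5.89 ± 0.19, edgeR adjusted p = 3.34e-17), and INHBA, the activin subunit, rose by 1.97 ± 0.08. Their secreted antagonists fell, GREM1, named after its value was seen, from 1360.0 ± 79.2 to 436 ± 19.8 CPM (-1.64 ± 0.07) and FST (follistatin) by 2.23 ± 0.09. ID2, a BMP target, fell by 2.06 ± 0.11, ID1 was at -0.03 ± 0.13 and SMAD9, which carries BMP signals, fell by 2.42 ± 0.24. Of 31 genes 7 rose and 17 fell (median -0.44). In the Notch list (median 0.19, 10 of 16 members tested) 4 of 10 rose, among them the targets HEY1 (2.83 ± 0.24) and HES1 (2.34 ± 0.51) and the ligand JAG1 (0.53 ± 0.15), and 1, the ligand DLL4, fell by 0.55 ± 0.21 and was not called without EV replicate 49 or 50 or without EV_4OHT replicate 53 or 55 (-0.49 to -0.35) or with the 8 vector libraries alone (-0.57). Wnt genes exchanged members: the receptors FZD7 and FZD2 and the antagonists SFRP1 and DKK1 fell by 2.59 ± 0.13, 2.67 ± 0.27, 1.8 ± 0.08 and 1.25 ± 0.10, and FZD8, DKK2 and LEF1 rose by 3.71 ± 0.38, 2.07 ± 0.20 and 1.79 ± 0.21. In that list 6 of 17 rose and 7 fell (median -0.21, -0.33 without EV replicate 52, 17 of 27 members tested). WLS, which carries Wnt proteins out of the cell and lies outside that list, rose by 2.4 ± 0.06 and had the smallest standard error of the changes over 4-fold.

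Other secreted growth factors also changed. STC1, a secreted regulator of calcium and phosphate, went from 228, 199, 205 and 221 to 3402, 3787, 3472 and 3592 CPM (4.06 ± 0.06), and ANGPTL4, which blocks lipoprotein lipase, rose by 3.89 ± 0.13. VEGFA rose by 1.41 ± 0.30 at a mean of 3.27 ± 0.291 CPM and ANGPT2 by 2.17 ± 0.34, in a list with 9 higher and 14 lower of 30 (median -0.15, -0.01 without EV replicate 51, -0.30 with DESeq2 or no filter). In the IGF axis 9 of 17 fell and 3 rose (median -0.26, -0.45 with the stricter filter): the binding proteins IGFBP3 and IGFBP6 fell by 1.8 ± 0.10 and 1.09 ± 0.10, IGFBP5 was at 0.15 ± 0.12, and INSR, the insulin receptor, fell by 1.32 ± 0.17. With the GC trend removed 5 IGF genes rose. GK and BPGM, enzymes of glycerol and bisphosphoglycerate metabolism, and LPXN, a focal adhesion protein, rose by 2.07 ± 0.07, 2.36 ± 0.07 and 2.47 ± 0.07, with standard errors among the 10 smallest of the changes of 4-fold or more. TAGLN3, a relative of transgelin made mainly in neurons, went from 0.809, 1.09, 1.37 and 1.05 to 91.5, 96.9, 91.8 and 87.7 CPM (6.39 ± 0.14). KIT, the receptor of stem cell factor and 1 of the 15 largest decreases, fell by 4.17 ± 0.47.

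Most collagen and matrix genes fell. COL1A1 and COL1A2, the chains of type I collagen, were at 3770.0 ± 379 and 3509 ± 316 CPM in EV and at 1170.0 ± 54 and 1001 ± 28.2 in EV_4OHT, decreases of 1.69 ± 0.09 and 1.81 ± 0.08, and COL3A1 fell by 1.73 ± 0.09. Of 24 collagen genes 16 fell and 5 rose (median -0.56). COL10A1, the collagen of hypertrophic cartilage, rose against that trend from 0, 0.478, 0.423 and 0.369 to 14, 16.2, 13.9 and 17.7 CPM (5.56 ± 0.27), with COL4A6 (2.04 ± 0.24), COL5A3 (1.77 ± 0.23) and COL7A1 (1.56 ± 0.16). All collagen genes together held 1.01 ± 0.090% of counts in EV and 0.372 ± 0.015% in EV_4OHT (SD, n = 4; two-sided exact permutation p = 0.0286). DCN, decorin, which coats collagen fibres, went from 913, 975, 1038 and 1052 to 118, 134, 120.2 and 114 CPM and fell by 3.03 ± 0.07, and elastin (ELN) and the fibulin FBLN1 fell by 3.86 ± 0.58 and 2.61 ± 0.10. TNC (tenascin C) and POSTN (periostin), a pair of matrix proteins of wounds, rose by 0.65 ± 0.09 and 1.11 ± 0.13. In that list of 36 matrix genes 6 rose and 23 fell (median -0.69).

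Contractile genes of the myofibroblast fell in 18 of 20 cases and none rose (median -1.01). ACTA2, smooth muscle actin, was at 271, 248, 226 and 274 CPM in EV and at 60.9, 58.3, 63.1 and 55.4 in EV_4OHT (-2.1 ± 0.09, edgeR adjusted p = 4.78e-15). LMOD1, which starts actin filaments, fell by 4.45 ± 0.25, TAGLN by 2.56 ± 0.08 and the myosin MYH10 by 2.2 ± 0.12. Targets of YAP, a factor that reads cell tension, fell in 13 of 20 cases and rose in 4 (median -0.57), with the receptor AXL at -1.9 ± 0.11 and CCN1 at -1.16 ± 0.08, while F3, tissue factor, rose by 1.23 ± 0.07. Integrins divided into 5 higher and 9 lower of 16 (median -0.40): ITGB3, the beta chain of the vitronectin receptor, went from 11.3, 8.13, 6.03 and 6.27 to 40.4, 42.9, 47.3 and 42.2 CPM (2.45 ± 0.15), ITGA5 and ITGA2 rose by 0.88 ± 0.11 and 0.80 ± 0.09, and ITGBL1 and ITGA7 fell by 2.29 ± 0.08 and 1.81 ± 0.26. CLDN11, a tight junction gene, was at 877, 1364, 2122 and 1047 CPM in EV and at 66.4, 73.9, 65.4 and 71.2 in EV_4OHT, a decrease of 4.29 ± 0.23, with EV replicate 51 the highest of the EV libraries and a change of -3.99 without it.

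HOX genes record where in the body a fibroblast came from. Of 13 tested, 3 fell and none rose (1 with no filter or without EV_4OHT replicate 53) (median -0.63, -0.22 to -0.21 with DESeq2 or no filter, 13 of 24 members tested). HOXA2, HOXA3 and HOXB3 fell by 1.77 ± 0.40, 1.74 ± 0.20 and 1.42 ± 0.22, and HOXA5, needed for lung development, was at -0.25 ± 0.13. Among transcription factors of lung and limb mesenchyme, 14 of 28 fell and 6 rose (median -0.46, 28 of 37 members tested). TBX5 and MEIS1 fell by 1.15 ± 0.11 and 1.28 ± 0.07, TCF21 was at -0.18 ± 0.11, and FOXF1, of lung mesenchyme, and SNAI1, of the mesenchymal transition, rose by 0.47 ± 0.08 and 1.08 ± 0.15.

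Antioxidant targets of NRF2 rose in 17 of 24 and fell in 5 (median 0.50). HMOX1, haem oxygenase, was at 37.6, 34.5, 32.3 and 38.2 CPM in EV and at 199.6, 159, 187 and 158 in EV_4OHT (2.3 ± 0.14, edgeR adjusted p = 4.89e-12), SLC7A11, the cystine importer, rose by 1.64 ± 0.13 and NQO1 by 0.83 ± 0.08. Metallothioneins rose at MT2A, from 1131, 1358, 1292 and 1542 to 3739.5, 4762, 3922 and 4089 CPM (1.63 ± 0.09), and at MT1X (2.1 ± 0.16), and SLC40A1, the iron exporter ferroportin, fell by 1.37 ± 0.21. In the metal list 5 of 9 rose and 2 fell (1 with the GC trend removed or without EV replicate 51 or EV_4OHT replicate 53, 54 or 56) (median 0.52, 9 of 12 members tested).

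Of 27 genes of ribosome synthesis 18 rose and 2 fell (1 without EV replicate 50 or 51 or EV_4OHT replicate 53 or 55), with a median of 0.37, 0.26 with library totals. POLR1B, a subunit of RNA polymerase I, rose by 0.87 ± 0.10, MYC by 0.55 ± 0.09 and MXD1, which opposes MYC, by 1.51 ± 0.11. All 13 mRNAs of the mitochondrial genome rose, from 0.42 to 1.13, and held 2.17 ± 0.066% of counts in EV and 3.17 ± 0.041% in EV_4OHT (SD, n = 4; two-sided exact permutation p = 0.0286). Of 30 respiratory chain genes of the nucleus 16 rose and 1, SDHD, fell, with a median of 0.22. With library totals 10 rose and 4 fell, and 3 fell without EV replicate 49. SDHB and UQCRH rose by 0.69 ± 0.07 and 0.94 ± 0.11. Proteasome genes were alike, with 19 of 34 higher and 3 lower (median 0.21), or 12 and 6 with library totals. PSMD8 and PSMC4 of the regulatory particle rose by 0.84 ± 0.07 and 0.70 ± 0.09, and PSME1 and PSME2, the interferon-inducible activator, fell by 0.86 ± 0.08 and 0.31 ± 0.08.

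Genes of glycolysis and the hypoxia response, taken as 1 list, rose in 23 of 33 tested and fell in 5 (median 0.38). HK2, the inducible hexokinase, was at 28.1, 33.4, 25.8 and 29.9 CPM in EV and at 122, 126, 146 and 138 in EV_4OHT (2.19 ± 0.10, edgeR adjusted p = 3.06e-14). The glucose transporters parted, SLC2A3 rising by 1.51 ± 0.06 and SLC2A1 falling by 0.40 ± 0.09, and PDK1, which diverts pyruvate from mitochondria, fell by 0.83 ± 0.11. LDHA was at 0.10 ± 0.06. Polyamine breakdown rose at SAT1 (2.46 ± 0.08) and SMOX (1.81 ± 0.08), and ODC1, which starts polyamine synthesis, rose by 0.63 ± 0.09. AHCY, the gene the series knocks down, rose by 0.53 ± 0.12, and MTR, methionine synthase, fell by 0.77 ± 0.11. Of 27 genes of one-carbon and polyamine metabolism 10 rose and 8 fell (median 0.02, -0.09 with library totals or without EV replicate 49, and -0.02 with the GC trend removed).

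Lysosome genes rose in 21 of 36 and fell in 5 (3 with no filter) (median 0.31). NPC1, which exports cholesterol from lysosomes, was at 41.6, 27.9, 21.1 and 33.4 CPM in EV and at 195, 167, 183 and 165 in EV_4OHT (2.52 ± 0.15). GLB1, whose product gives the beta-galactosidase stain of senescent cells, rose by 0.36 ± 0.08, the proteases CTSL and CTSB by 2.12 ± 0.09 and 1.49 ± 0.07, and LAMP1 was at 0.03 ± 0.07. Endoplasmic reticulum stress genes divided into 9 higher and 6 lower of 28, 10 lower with library totals, where the median turned from 0.08 to -0.04: the stress factors DDIT3, TRIB3 and the sensor ERN1 (IRE1) rose by 1.16 ± 0.08, 1.54 ± 0.09 and 1.91 ± 0.31, and the chaperones HSP90B1 and PDIA3 fell by 0.46 ± 0.07 and 0.29 ± 0.06. Sterol genes showed 7 higher and 10 lower of 30 (median -0.01), or 12 higher with the GC trend removed. The exporters ABCA1 and ABCG1, targets of the sterol sensor LXR, rose by 1.05 ± 0.24 and 2.94 ± 0.47. Of 24 other solute carriers 11 rose and 3 fell (median 0.27). SLC16A6, a monocarboxylate transporter, went from 9.33, 7.1, 8.25 and 9.22 to 247, 239.5, 249 and 242 CPM (4.85 ± 0.12), SLC20A1, a phosphate importer, rose by 2.67 ± 0.08, and SLC38A2, which carries glutamine, fell by 1.11 ± 0.10. Outside that list, SLC6A15, which imports branched-chain amino acids, rose by 3.72 ± 0.07, and SLC7A14, a lysosomal carrier, fell by 4.85 ± 0.27.

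Shares of all counts show how much of each library such genes held. Cyclins and mitotic kinases held 0.461 ± 0.013% of counts in EV and 0.346 ± 0.0073% in EV_4OHT, and the 10 highest genes of each library 9.65 ± 0.436% and 10.7 ± 0.128% (SD, n = 4; two-sided exact permutation p = 0.0286 for both). The cyclin and CDK list, which holds CCND1, a gene not called, summed to 3302.1 to 3533.5 CPM in EV and 2949.7 to 3043.6 in EV_4OHT. For the list of CDC25 and mitotic kinase genes the sums were 1029.3 to 1046.9 and 581.45 to 623.81 CPM. Collagen and protease shares moved in opposite directions, and the libraries of each group did not overlap.

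**Figure D4:**
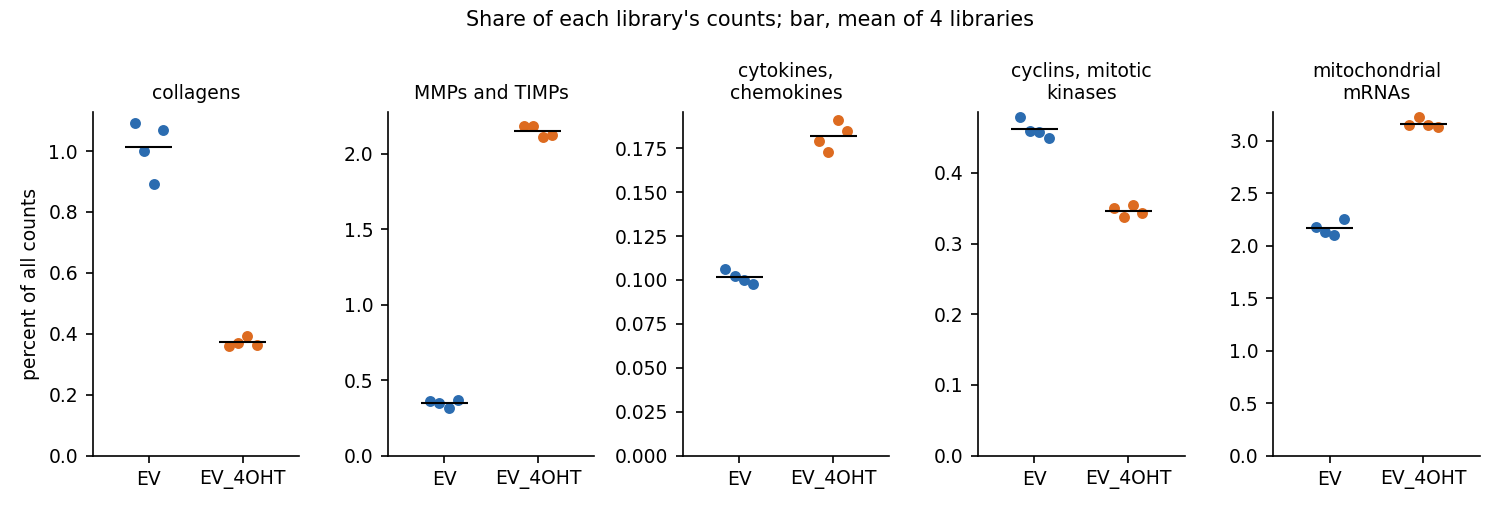
Percent of all counts of a library (vertical axes, from 0) held by 5 groups of genes, 1 point per library and a bar at the mean of the 4 libraries, EV in blue and EV_4OHT in orange. Matrix metalloproteinases and TIMPs rise from 0.348% to 2.15% while collagens go from 1.01% to 0.372%, and no group overlaps.

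Some genes of the skin barrier were much higher in EV_4OHT. LCE1F, a late cornified envelope gene, was at 0.124, 0.41, 0.106 and 0.861 CPM in EV and at 70.2, 74, 68.8 and 71.6 in EV_4OHT (7.57 ± 0.22, edgeR adjusted p = 8.14e-18), and LCE2A rose by 6.21 ± 0.20. IVL (involucrin), which the envelope is built on, had 0 counts in every EV library and reached 3.91, 2.75, 5.82 and 1.73 CPM in the EV_4OHT libraries (a rise of at least 79.6-fold). PI3, an elastase inhibitor of inflamed skin, also had 0 counts in EV and 5.49, 6.91, 5.16 and 5.41 CPM in EV_4OHT. Only 8 of the 35 genes matched in the epidermal list passed the filter, 4 of them rose (8 when no filter was applied or with DESeq2), and 2 fell (median 3.05, -0.14 to 1.58 with DESeq2, no filter, the stricter filter or the 8 vector libraries alone, or 2.07 with genes at 0 in EV at their lower bounds), KRTAP1-5 by 1.25 ± 0.13 and S100A2 by 0.57 ± 0.21. With library totals 4 fell, and only 1 did without EV replicate 50, without EV replicate 52 or without EV_4OHT replicate 53, since S100A2 was then not called (-0.53 to -0.48 without these or EV_4OHT replicate 55). Loricrin and the keratins KRT5 and KRT14 stayed at or near 0, with at most 1 count of LORICRIN in any library. LCE genes are near copies of each other that may share reads, so their single values are uncertain.

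In all 15 genes had 0 counts in every EV library and at least 10 in every EV_4OHT library, and 2, E2F8 and MIR924HG, had the reverse. Besides those above, the first set held FER1L6, of the ferlin family of membrane fusion proteins, at 10.1, 9.19, 13.8 and 11.5 CPM in EV_4OHT (a rise of at least 248-fold), STON2, an adaptor of endocytosis, at 4.57, 4.4, 5.09 and 2.93 CPM (at least 93.7-fold), and the cystatin gene CST4 at 3.57, 3.22, 3.28 and 2.26 CPM (at least 67.6-fold). Long noncoding RNAs were counted apart: of 700 lincRNA and antisense genes tested 42 rose and 5 fell at least 8-fold, against 147 and 122 of 12031 protein-coding genes. At any size 173 of the 700 rose and 105 fell, so 39.7% were called, fewer than the 55.5% of protein-coding genes. LINC02154 was at 0.622, 0.956, 0.423 and 0.492 CPM in EV and at 57.2, 51, 60.8 and 65.5 in EV_4OHT (6.57 ± 0.17), LINC01705 rose by 6.18 ± 0.16, and LINC02392 had 3 counts over the EV group and 1488 over the EV_4OHT group, a ratio of 617 (exact 95% binomial interval 211 to 2990). Among 26 named long noncoding RNAs tested 10 rose and 5 fell (median 0.06, -0.05 with library totals, 0.18 to 0.23 with DESeq2, no filter, the stricter filter or the 8 vector libraries alone, 26 of 33 members tested): MIR31HG, a regulator of the p16 locus, and LUCAT1 rose by 1.64 ± 0.16 and 3.8 ± 0.26, and MALAT1 and MIR100HG fell by 1.14 ± 0.30 and 1.6 ± 0.13. Smart-Seq2 libraries do not mark strand, so reads of an antisense gene and its partner cannot be told apart.

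**Figure D5:**
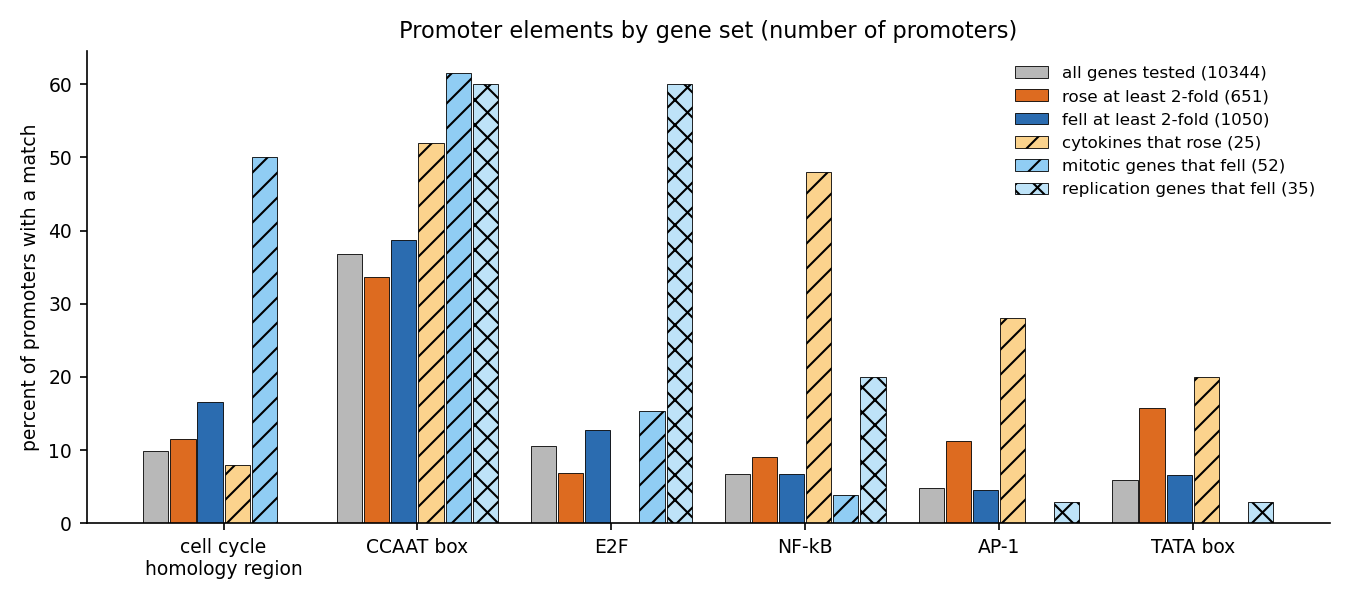
Percent of promoter windows (vertical axis, from 0) that hold a match to 1 of 6 promoter elements, for all genes tested (grey), genes that rose (orange) or fell (blue) at least 2-fold, and 3 gene lists (hatched). The cell cycle homology region stands in 26 of 52 promoters of the mitotic genes that fell and the NF-kB element in 48.0% of the promoters of cytokine and chemokine list genes that rose, receptors included.

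The hairpin libraries share the filter on low counts, the scaling factors and the estimate of the spread. With the 8 vector libraries alone 13113 genes were tested, of which 3343 rose and 3785 fell. Genes that the filter on low counts left out were not compared, among them list members silent in both groups.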

How the data were processed

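RNA of IMR90 ER:RAS cells was sequenced from Smart-Seq2 libraries, per the labels' protocols. The values are raw counts per gene that the authors deposited, 1 column per library. The submitters' processing notes name CASAVA 1.8.2, TopHat2 2.0.11, featureCounts 1.18.0 and the builds hg19 and GRCh37, and the annotation is not given in the sources used here. Libraries were grouped by their labels, and replicate numbers are not shared between groups. Of 62069 identifiers 39007 were paired with a symbol, and the rest held 0.6352% of counts.

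Counts were tested with edgeR 4.0.16 (quasi-likelihood, TMM factors, filterByExpr) in R 4.3.3 over all 16 libraries with 1 mean per group, two-sided, with Benjamini-Hochberg adjustment over 13526 genes. The biological coefficient of variation was 11.886%. The script was tested on simulated data. Shares of counts were compared by exact permutation. Promoter windows came from RefSeq (GRCh38.p14), whose build differs from that of the counts, so genes were matched by symbol: 10344 of the genes tested had a window. Alternatives were RLE and upper-quartile factors, library totals, DESeq2 1.42.0, limma-voom (limma 3.58.1), other filters on low counts, the 8 libraries alone, removal of GC trends, each library left out, and, for shares and for genes at 0, another total and another minimum. Total counts of 12502278 to 18235787 a library set the precision, and intervals cover counting error only.

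The comparison, gene lists and named genes were chosen with earlier results of these data known. The genes named are the first 3 members of each list, the 4 largest called changes in it, up to 4 called against its main direction, the 15 largest increases and decreases at a mean log2 CPM of at least 3 with groups that do not overlap, up to 10 genes at 0 counts in 1 group, the 10 changes of at least 4-fold with the smallest standard errors, and the fixed cell type markers. A few genes that this rule selects are not reported here. Chosen after their values were seen were CXCL2, GREM1, H4C8, IFNB1, IL1R1, LORICRIN, MICA, MICB, MYD88, ORC1, ORC2, ORC4, ORC5, TNF, ULBP1, ULBP2 and ULBP3. CMPK2 and NRIR were chosen in the same way. They are not among the named genes whose calls were checked under alternatives or for outlying libraries.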

Additional observations from a re-analysis of the deposited data

Results flagged for a closer look

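Sets of 4 libraries were checked for the genes named in the report, the shares of counts and the total counts. In 41 of 660 sets the highest or lowest of 4 libraries lay far from the other 3 (a gap over the range above Dixon's 95% critical value). All of these were sets of a named gene. Chance gives about 1 in 20 sets. The number per library ran from 3 (EV replicate 50 and EV_4OHT replicate 55) to 9 (EV_4OHT replicate 56), and EV replicate 51, which stands apart in its counts, had 4. All values are CPM, each followed by the range of the other 3 libraries of its group.

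In EV replicate 49, HMGN2 was at 521 against 589 to 600.0, KIF20A was at 82.1 against 69.8 to 71.6 and KIT was at 13.1 against 15.7 to 16.1. There, MXD1 was at 11.8 against 15.1 to 15.4, PRIM1 was at 8.9 against 8.57 to 8.61 and TNFAIP6 was at 5.66 against 5.39 to 5.41. In the same library, VCAM1 was at 0.933 against 3.07 to 3.44. In EV_4OHT replicate 53, EBI3 was at 0 against 0.134 to 0.157, H1-1 was at 0 against 0.134 to 0.157 and ID1 was at 73.6 against 59.5 to 61.3. There, ID2 was at 46.9 against 39.9 to 40.4 and MIR100HG was at 51.4 against 55.9 to 56.5. In EV_4OHT replicate 54, E2F4 was at 28.9 against 24.4 to 24.8, KRT5 was at 0.0786 against 0 and PCNA was at 77.6 against 68.8 to 69.6. There, THY1 was at 298 against 274 to 277 and TNFAIP3 was at 6.05 against 10.2 to 10.8. In EV_4OHT replicate 55, ITGA2 was at 342 against 331 to 333, MYBL2 was at 0.268 against 0 and TNF was at 0.0669 against 0. In EV_4OHT replicate 56, ABCG1 was at 2.48 against 1.21 to 1.34, CDKN3 was at 5.79 against 4.42 to 4.57 and CHAF1B was at 2.03 against 2.24 to 2.28. There, KIF5B was at 281 against 256 to 258, LORICRIN was at 0.0752 against 0 and PHLDA3 was at 32.4 against 34.7 to 35.1. In the same library, SDHD was at 109 against 92 to 94.4, TNFSF4 was at 3.08 against 6.13 to 6.36 and VCAM1 was at 0.752 against 0.166 to 0.236. In EV replicate 50, AREG was at 0.0683 against 0, CCNE1 was at 10.2 against 8.28 to 8.41 and MTR was at 29.2 against 25.2 to 25.6. In EV replicate 51, CCL20 was at 0.37 against 0 to 0.0615, CD82 was at 46.8 against 49.9 to 50.2 and DKK2 was at 1.74 against 1.11 to 1.18. There, KDR was at 0.0529 against 0. In EV replicate 52, CCNB2 was at 95.4 against 83.2 to 84.8, IL33 was at 0.0615 against 0 and LCE2A was at 0.984 against 0.311 to 0.41. There, LIN54 was at 18.7 against 14.7 to 15.3 and STAG2 was at 49.6 against 72.4 to 74.4.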

How the results depend on the processing

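No paired analysis was possible because the replicate numbers of EV (49 to 52) and EV_4OHT (53 to 56) are not shared. The counts of genes that rose or fell, at any size and at least 2-fold, stayed within 1.5 times their value under all 17 alternatives: 2805 to 4172 genes rose and 3332 to 4530 fell. The low value for rising and the high value for falling genes came from library totals. Of 326 named genes tested, 297 were tested under every alternative and kept their side of the threshold, 17 crossed it under at least 1, and the other 12 were left out by at least 1, where fewer genes passed the filter. None changed direction while called. The share held by the 10 highest genes of each library lay past the threshold with all libraries (adjusted exact p = 0.02857) and not when any EV_4OHT library was left out (differences of 1.02 to 1.11 percentage points, adjusted exact p = 0.05714). Over all single libraries left out that difference was 0.887 to 1.22. With a minimum of 5 counts in place of 10, 27 genes were at 0 in EV and 6 in EV_4OHT. Depth limits the silent genes: 3 counts over the group are the floor behind each lower bound, and gene lists with small medians (NF-kB proteins, RAS regulators, the endoplasmic reticulum, one-carbon metabolism and named noncoding RNAs) have a sign that library totals turn. Medians of these lists and of sterol genes, which lie within 0.1 of 0, also turned or reached 0 under some other settings. The sign of 2 larger medians depended on which members passed the filter: CDK inhibitors with DESeq2 or no filter, and epidermal genes with the stricter filter or the 8 vector libraries alone.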
